A study of Mus musculus with 15 samples.

Results

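The Wnt genes described here are 10 named genes of the Wnt pathway, taken from a table of 19938 genes measured on 15 mouse arrays. They are the ligand gene Wnt5a, the agonist gene Rspo3, the secreted inhibitor genes Sfrp1, Sfrp2, Dkk2 and Dkk3, the intracellular feedback inhibitor genes Nkd1 and Nkd2, and the target and effector genes Axin2 and Lef1. Each was chosen by name, and each was read by 1 probe set that named no other gene. All 10 were measured, and none was removed by a filter. The cells were cultured cardiac colony-forming unit fibroblasts (cCFU-F), stromal cells of the adult heart that form colonies when plated sparsely. They were isolated from C57BL/6 mice of 12 weeks, labelled male, as cells positive for SCA1 and PDGFRα and negative for CD31. There were 5 groups of 3 arrays, namely untreated large colonies at passage 5, untreated large colonies at passage 15, untreated small colonies at passage 5, small colonies with PDGF-AB (50 ng/ml) at passage 5, and small colonies with PDGF-AB at passage 15. PDGF-AB is a platelet-derived growth factor dimer that binds both PDGF receptors.

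Wnt ligands are secreted proteins that bind Frizzled receptors together with LRP5 or LRP6 (the canonical branch) or ROR and RYK receptors (the non-canonical branches). In the canonical branch they stop the destruction of beta-catenin, which then joins TCF and LEF factors in the nucleus and switches on target genes. R-spondins amplify the signal by keeping Frizzled receptors on the surface, SFRP proteins bind ligands outside the cell, and Dickkopf proteins act at the LRP coreceptors. In the heart the pathway is known for its roles in epicardial and fibroblast development and in scar formation after injury.

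Values are log2 intensities, so a difference of 1 is a 2-fold ratio of intensity. Group levels are means with the SD over 3 arrays (n = 3), and changes are log2 differences with the SE of a limma fit over all 15 arrays. A gene was called changed at an adjusted p under 0.05 over 19938 genes. Probe sets differ in their response, so levels are compared within a gene and never between genes. Nothing in the labels tells whether the replicates are different mice, different dishes or repeat preparations, nor whether a colony line was 1 clone. The p-values therefore reflect array-to-array spread that may be technical. Small colonies without PDGF-AB were not followed to passage 15 in these data, and wherever treated small colonies are set against untreated large ones, colony size and PDGF-AB cannot be told apart. RNA came from whole cultures, where fewer expressing cells and less RNA per cell cannot be told apart.

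Array medians lay between 5.59 and 5.72 and lower quartiles between 4.06 and 4.23. Against the label, Xist, the RNA of the inactive X chromosome, ranged from 8.93 to 10.88 over all arrays. The Y-linked genes Eif2s3y, Kdm5d and Uty ranged from 2.24 to 3.40. All 15 arrays shared this, so no result could be given without such arrays. Xist still differed between colony types, by -1.35 in large against small untreated colonies at passage 5 (limma, adjusted p = 8.35e-07). In treated small against large colonies it was higher by 1.45 at passage 5 and 0.71 at passage 15. The part of this in the results was not tested. Of 8 measured stromal fibroblast markers all lay above the median level of genes. Pdgfra, the receptor used for sorting, ranged over group means from 6.28 ± 0.10 to 8.84 ± 0.15, and Ly6a, which encodes SCA1, was not among the genes analysed here. The surface marker Thy1 had a level of 10.33 ± 0.050 in untreated large colonies at passage 5, against 5.11 ± 0.13 in untreated small ones. None of 7 endothelial markers lay above the median level, Pecam1 (CD31) ranging over group means from 4.29 ± 0.11 to 4.59 ± 0.094. Above it lay 2 of 7 leukocyte, 1 of 6 cardiomyocyte, 1 of 5 mesothelial and 3 of 5 pericyte markers. The mean level of each list spanned, over the arrays of all groups, 4.44 to 4.84 for endothelial, 4.85 to 5.72 for leukocyte, 5.23 to 5.88 for cardiomyocyte, 5.56 to 6.37 for mesothelial and 5.90 to 6.35 for pericyte markers.

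Wnt5a, a ligand known mainly for non-canonical signalling, was highest in untreated small colonies and lowest in large colonies of the same passage. The 3 arrays of untreated small colonies read 8.46, 8.39 and 8.49, and those of small colonies with PDGF-AB at passage 5 read 7.64, 7.53 and 7.37. At passage 15 treated small colonies read 6.95, 6.93 and 6.99. Large colonies read 6.14, 5.91 and 5.97 at passage 5 and 6.80, 6.63 and 6.58 at passage 15. The groups therefore ran from untreated small (8.45 ± 0.054) through treated small at passage 5 (7.51 ± 0.14), treated small at passage 15 (6.96 ± 0.030) and large at passage 15 (6.67 ± 0.12) to large at passage 5 (6.01 ± 0.12), with no overlap between the arrays of neighbours. The difference of large from small colonies at passage 5 was -2.44 (SE 0.080, adjusted p = 2.47e-13), a 5.43-fold ratio. With PDGF-AB Wnt5a fell by 0.93 (SE 0.080, adjusted p = 1.99e-07).

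Rspo3 encodes an R-spondin, the agonist that binds LGR receptors and spares Frizzled receptors from removal. It had the widest range of group means among the 10 genes (5.43), and both large groups lay above all small ones. Large colonies read 10.18, 10.12 and 10.21 at passage 5 and 8.33, 8.04 and 8.28 at passage 15. Untreated small colonies read 6.80, 6.89 and 6.77. With PDGF-AB small colonies read 5.48, 5.30 and 4.95 at passage 5 and 4.51, 4.93 and 4.77 at passage 15. All neighbours in this order were free of overlap, although the last pair was close (4.95 against 4.93). Rspo3 was 10.2-fold higher in large than in small untreated colonies (log2 difference 3.35, SE 0.12, adjusted p = 9.72e-13) and fell 2.99-fold with PDGF-AB (adjusted p = 5.46e-08). The lowest means, 5.24 ± 0.27 and 4.74 ± 0.21, lay below the array medians, so folds against them may depend on background.

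Sfrp1, a secreted Frizzled-related protein that binds Wnt ligands outside the cell, separated large from small colonies at both passages. Large colonies read 11.78, 11.81 and 11.80 at passage 5 and 12.47, 12.46 and 12.36 at passage 15. Small colonies at passage 5 read 8.93, 8.89 and 8.91 without PDGF-AB and 9.07, 9.03 and 8.97 with it. At passage 15 treated small colonies read 7.17, 6.98 and 7.21. Every large array was thus above every small one, and the lowest group was the late treated small colonies. At passage 5 the level in large colonies was 7.39-fold that in small ones (adjusted p = 1.83e-15). Untreated and treated small colonies differed by 0.11 (95% interval -0.021 to 0.25, adjusted p = 0.198) without overlap of their arrays. That difference had an adjusted p = 0.0379 after cyclic loess between arrays.

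Sfrp2, a paralog of Sfrp1 and likewise a secreted Frizzled-related protein, was distributed the other way at passage 5. Small colonies read 7.04, 7.22 and 6.98 without PDGF-AB and 7.82, 7.66 and 7.20 with it. Treated small colonies at passage 15 read 5.55, 5.57 and 5.42. Large colonies read 4.80, 5.09 and 5.40 at passage 5 and 5.31, 5.11 and 5.02 at passage 15. Both early small groups thus stood apart from all other arrays, and both large groups overlapped each other. The level in large colonies was 3.95-fold below that in small ones at passage 5 (log2 difference -1.98, SE 0.15, adjusted p = 1.48e-08). Both large groups (5.10 ± 0.30 and 5.14 ± 0.15) lay below the array medians, so folds against them may depend on background. With PDGF-AB it was higher by 0.48 (SE 0.15, adjusted p = 0.0226), but the arrays overlapped. Omitting replicate 1 or 3 of the untreated group ended the call (adjusted p = 0.063 and 0.0725), as did omitting replicate 1 or 2 of the treated group (0.11 and 0.0791).

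Dkk2 and Dkk3 encode secreted Dickkopf proteins. Dkk2 is known as a ligand of LRP5 and LRP6 that inhibits or, in some settings, activates the pathway, and Dkk3 is a divergent member that is not a firm Wnt inhibitor. Both lay below the median level of all genes on average, and their group means spanned 0.86 and 0.95. For Dkk2 large colonies read 5.94, 5.68 and 5.96 at passage 5 and 5.10, 5.18 and 5.21 at passage 15. For Dkk2 small colonies at passage 5 read 5.56, 5.71 and 5.45 untreated and 4.94, 5.13 and 4.94 with PDGF-AB. The treated small colonies at passage 15 read 5.43, 5.48 and 5.56. Dkk2 was thus lowest in treated small colonies at passage 5 and in large colonies at passage 15, groups that overlapped. With PDGF-AB Dkk2 fell by 0.58 (SE 0.085, adjusted p = 7.86e-05). The difference of 0.28 between large and small colonies (adjusted p = 0.0142) came with overlapping arrays. It was not called without large replicate 1 (adjusted p = 0.0551) or 3 (0.0721), without small replicate 3 (0.0727), after cyclic loess (0.0573) or with the compared arrays alone (0.052).

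Dkk3 was highest in late large colonies. Large colonies read 5.99, 5.79 and 5.69 at passage 15, against 5.04, 5.25 and 5.17 at passage 5. Small colonies read 4.93, 4.82 and 4.88 untreated, 4.89, 4.91 and 4.85 with PDGF-AB, and 4.84, 5.00 and 4.90 with PDGF-AB at passage 15. The 3 small groups overlapped one another, and with PDGF-AB the difference at passage 5 was 0.0046 (95% interval -0.16 to 0.17, adjusted p = 0.971). Large colonies were above small ones at passage 5 by 0.28 (adjusted p = 0.00927), a call that was lost without large replicate 2 (adjusted p = 0.0508).

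**Figure D1:**
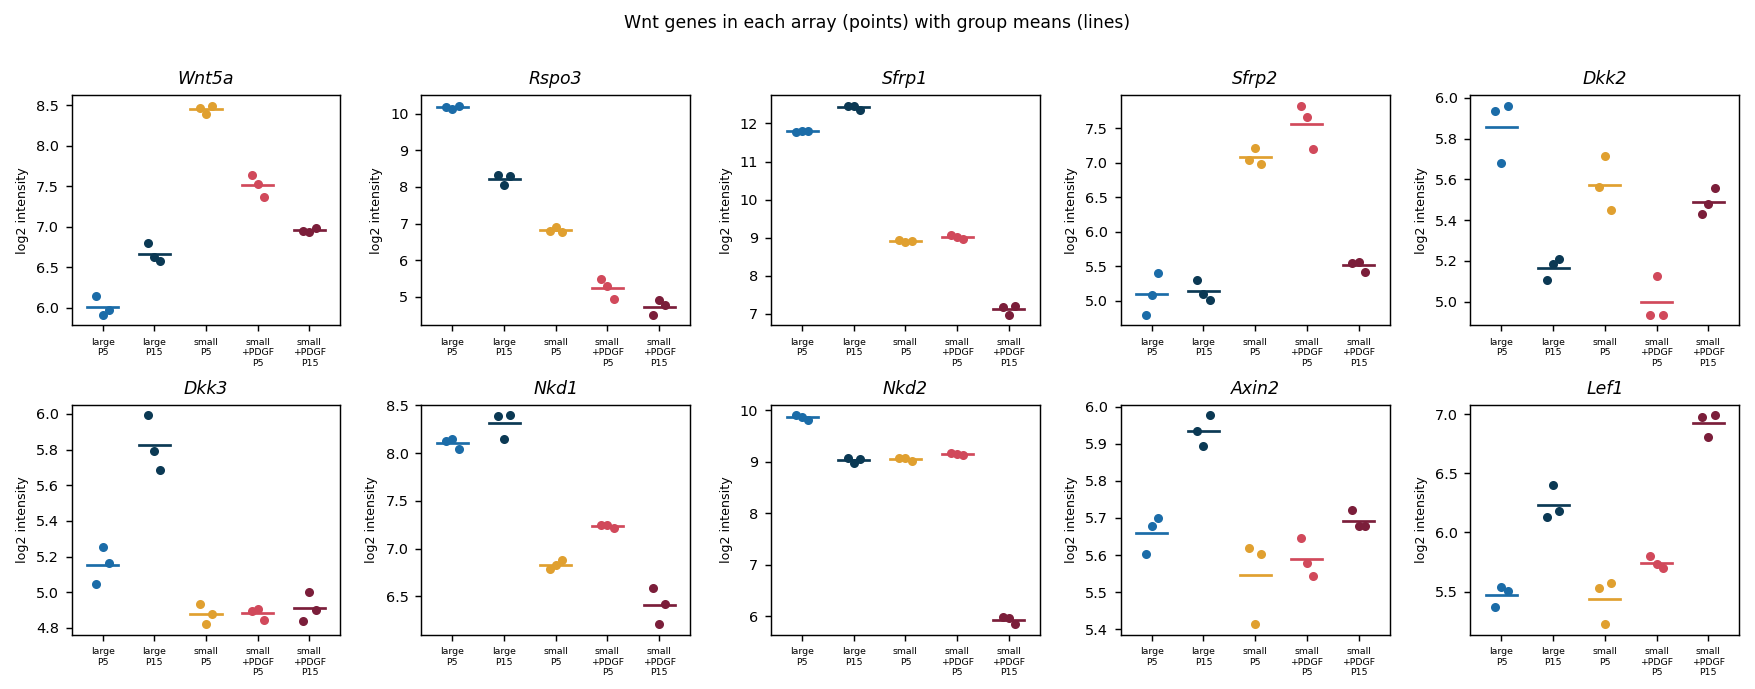
Log2 intensity (y axis, own scale in each panel) of the 10 Wnt genes in the 5 groups, with P5 and P15 for passages 5 and 15; points are single arrays and lines are means of 3 arrays. Rspo3 and Sfrp1 are highest in large colonies, Wnt5a and Sfrp2 in small colonies at passage 5, and Nkd2 is lowest in treated small colonies at passage 15 (5.93).

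Nkd1 and Nkd2 (naked cuticle) encode proteins that bind Dishevelled and dampen Wnt signalling inside the cell, and Nkd1 is a known target of the pathway itself. Nkd1 followed colony size. Large colonies read 8.13, 8.14 and 8.04 at passage 5 and 8.39, 8.15 and 8.40 at passage 15. Small colonies at passage 5 read 6.78, 6.82 and 6.88 untreated and 7.25, 7.25 and 7.21 with PDGF-AB, and treated ones read 6.59, 6.21 and 6.42 at passage 15. No neighbouring groups overlapped, but the gap between passages in large colonies was narrow (8.14 against 8.15). Nkd1 was 2.42-fold higher in large than in small colonies at passage 5 (adjusted p = 2.92e-09). It rose by 0.41 with PDGF-AB (SE 0.085, adjusted p = 0.00163). Of the 15 values of Nkd1, 1 repeated another exactly, in treated small colonies at passage 5.

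Nkd2 changed most in a single group. Treated small colonies read 5.99, 5.96 and 5.84 at passage 15 but 9.17, 9.15 and 9.12 at passage 5. Untreated small colonies read 9.06, 9.07 and 9.02. Large colonies read 9.90, 9.87 and 9.81 at passage 5 and 9.07, 8.98 and 9.05 at passage 15, the latter overlapping with untreated small colonies. Every other array lay at 8.98 or above. With passage in treated small colonies Nkd2 fell by 3.22 (SE 0.055, adjusted p = 1.76e-16), a 9.32-fold ratio. With PDGF-AB at passage 5 the difference was 0.093 (95% interval -0.024 to 0.21, adjusted p = 0.229), and after cyclic loess it was 0.18 (adjusted p = 0.0204).

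Axin2 encodes a scaffold of the beta-catenin destruction complex and is widely used as a readout of canonical signalling. It varied least of the 10 genes, with group means from 5.55 ± 0.11 to 5.94 ± 0.042, close to the array medians. Large colonies read 5.60, 5.68 and 5.70 at passage 5 and 5.93, 5.89 and 5.98 at passage 15. Small colonies at passage 5 read 5.62, 5.41 and 5.60 untreated and 5.65, 5.58 and 5.54 with PDGF-AB, and treated ones read 5.72, 5.68 and 5.68 at passage 15. Large colonies at passage 15 stood above all other arrays, and the other 4 groups overlapped with their neighbours. The rise with passage in large colonies was 0.27 (SE 0.062, adjusted p = 0.00186). Large and small colonies at passage 5 differed by 0.12 (95% interval -0.015 to 0.25, adjusted p = 0.166), and PDGF-AB by 0.044 (-0.087 to 0.17, adjusted p = 0.636). Of the 15 values 2 repeated another exactly.

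Lef1, a DNA-binding partner of beta-catenin and itself a target, was higher at passage 15 in both lines. Treated small colonies read 6.98, 6.81 and 6.99 at passage 15 and 5.80, 5.73 and 5.70 at passage 5. Large colonies read 6.13, 6.40 and 6.18 at passage 15 and 5.37, 5.54 and 5.50 at passage 5. Untreated small colonies read 5.53, 5.22 and 5.57, overlapping with early large colonies. The 2 late groups thus lay above every early array. The rise with PDGF-AB at passage 5 was 0.30 (SE 0.093, adjusted p = 0.0206). It became 0.20 without untreated small replicate 2 (adjusted p = 0.126) and was not called without treated replicate 1 either (adjusted p = 0.065).

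Promoter sequence was at hand for 6 of the 10 genes, from RefSeq on GRCm38.p6. The 250 bases before each annotated start were searched on both strands for 4 TCF/LEF heptamers that share their first 5 letters and so cannot coincide. They were CTTTGAA or CTTTGAT, and also CTTTGTA or CTTTGTT. Of 32851 such windows of all genes 14.8% held at least 1. Among the 9 windows of the 6 genes only 1 start of Lef1, start 4, held a match, at position -147 from the start. That window is shown with those of the feedback genes Axin2, Nkd1 and Nkd2, which held none in this window, and capitals mark the match. The probe sets do not show which start was used. The windows are chr3:131156044-131156293 (plus strand) for Lef1, chr11:108920099-108920348 (plus) for Axin2, chr8:88527383-88527632 (plus) for Nkd1 and chr13:73847632-73847881 (minus) for Nkd2, each written 5′ to 3′ on the strand of the gene.
Lef1 start 4: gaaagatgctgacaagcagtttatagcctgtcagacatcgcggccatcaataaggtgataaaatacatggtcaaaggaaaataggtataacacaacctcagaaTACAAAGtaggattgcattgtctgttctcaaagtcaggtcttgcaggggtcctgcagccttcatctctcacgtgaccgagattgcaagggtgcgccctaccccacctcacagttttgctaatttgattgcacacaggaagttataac
Axin2: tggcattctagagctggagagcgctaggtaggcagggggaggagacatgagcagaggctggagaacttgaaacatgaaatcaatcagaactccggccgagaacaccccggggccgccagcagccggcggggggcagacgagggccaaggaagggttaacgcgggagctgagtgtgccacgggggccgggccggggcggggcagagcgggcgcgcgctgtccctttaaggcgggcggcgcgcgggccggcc
Nkd1: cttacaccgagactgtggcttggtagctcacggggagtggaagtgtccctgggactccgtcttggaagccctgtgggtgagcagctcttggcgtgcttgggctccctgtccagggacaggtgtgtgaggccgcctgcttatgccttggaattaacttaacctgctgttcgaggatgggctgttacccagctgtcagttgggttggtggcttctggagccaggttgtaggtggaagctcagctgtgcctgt
Nkd2: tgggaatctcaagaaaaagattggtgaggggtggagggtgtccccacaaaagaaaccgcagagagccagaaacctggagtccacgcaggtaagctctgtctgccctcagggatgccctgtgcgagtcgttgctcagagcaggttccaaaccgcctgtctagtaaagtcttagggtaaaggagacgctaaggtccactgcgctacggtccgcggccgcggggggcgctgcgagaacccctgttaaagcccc

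The first comparison asked which genes set the colony types apart before any treatment, with the small colonies at passage 5 as baseline. The inhibitor Sfrp1, the agonist Rspo3, and Nkd1 and Nkd2 were higher in large colonies, by 2.89, 3.35, 1.28 and 0.81. Wnt5a (-2.44) and Sfrp2 (-1.98) were lower. Dkk2 and Dkk3 were higher by 0.28 each, and Axin2 and Lef1 were not called (0.12 and 0.032). limma called 8 of the 10 genes, against 36.2% of all genes, with 6 higher (background 18.2%) and 2 lower (background 18.0%). Arrays of both groups were free of overlap for 7 of the 10 genes, against 44.9% of all genes. The median size of the 10 changes was 1.04, against 0.14 over all genes. Dividing-cell markers differed between the same groups. The mean level of the 5 measured markers lay between 5.25 and 5.41 in large and between 6.86 and 6.88 in small colonies. Leukocyte markers were lower in large (5.29 to 5.35) than in small colonies (5.63 to 5.72), and pericyte markers higher (6.19 to 6.28 against 5.90 to 5.98). The stromal, endothelial, mesothelial and cardiomyocyte means did not overlap either, the last being lower in large colonies. Called by limma were 6 of 8 stromal, 2 of 7 endothelial, 1 of 5 mesothelial and 2 of 6 cardiomyocyte markers, against 36.2% of all genes. So were 3 of 7 leukocyte, 4 of 5 pericyte and 5 of 5 dividing-cell markers. Their part in the result was not tested.

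Of the other 102 measured genes of the pathway 26 were higher and 26 lower in large colonies, 51.0% called. Of all genes 36.2% were called, 18.2% higher and 18.0% lower. Frzb, another secreted Frizzled-related gene, was higher by 4.41 (SE 0.10), at 8.52 ± 0.062 in large colonies. Its level in small colonies (4.11 ± 0.12) fell within the range of the lower quartiles, so the fold depends on background. The Wnt5a receptor genes split, Ror1 being higher by 2.35 (SE 0.075) and Ror2 lower (-1.18, SE 0.077) in large colonies. The Frizzled gene Fzd7 (1.01) and the ligand gene Wnt4 (1.34) were higher as well. The Dishevelled partner gene Dact1 (-2.94), the membrane inhibitor gene Apcdd1 (-2.10) and the coreceptor gene Lrp5 (-1.14) were lower. By role, 5 of 15 receptor genes were higher and 7 lower. In the list of secreted inhibitors, which also holds membrane proteins such as that of Apcdd1, 4 of 16 were higher and 2 lower. Of 15 target genes 2 were higher and 5 lower. The role lists can share genes.

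Small colonies with PDGF-AB were compared with untreated ones at passage 5 to ask how the growth factor acts. Wnt5a (-0.93), Rspo3 (-1.58) and Dkk2 (-0.58) fell. Sfrp2, Nkd1 and Lef1 rose, by 0.48, 0.41 and 0.30. Sfrp1 (0.11), Dkk3 (0.0046), Nkd2 (0.093) and Axin2 (0.044) were not called. The 6 calls compare with 28.9% of all genes, and the 3 rises and 3 falls with 10.7% and 18.2%. The arrays did not overlap for 7 genes (background 43.0%). The median size of the 10 changes was 0.36, against 0.13 over all genes. The mean of the dividing-cell markers lay between 5.29 and 5.53 in treated and between 6.86 and 6.88 in untreated colonies. The mean of the 8 stromal markers lay between 9.27 and 9.31 in treated and between 9.77 and 9.85 in untreated ones. Mesothelial markers (5.56 to 5.74 against 6.10 to 6.19) and leukocyte markers (5.38 to 5.42 against 5.63 to 5.72) were lower with PDGF-AB, and cardiomyocyte markers (5.81 to 5.88 against 5.55 to 5.64) were higher. Called by limma were 6 of 8 stromal, 2 of 5 mesothelial, 2 of 7 leukocyte and 2 of 6 cardiomyocyte markers, against 28.9% of all genes. So were 5 of 5 dividing-cell markers. The part of these lists in the result was not tested.

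**Figure D2:**
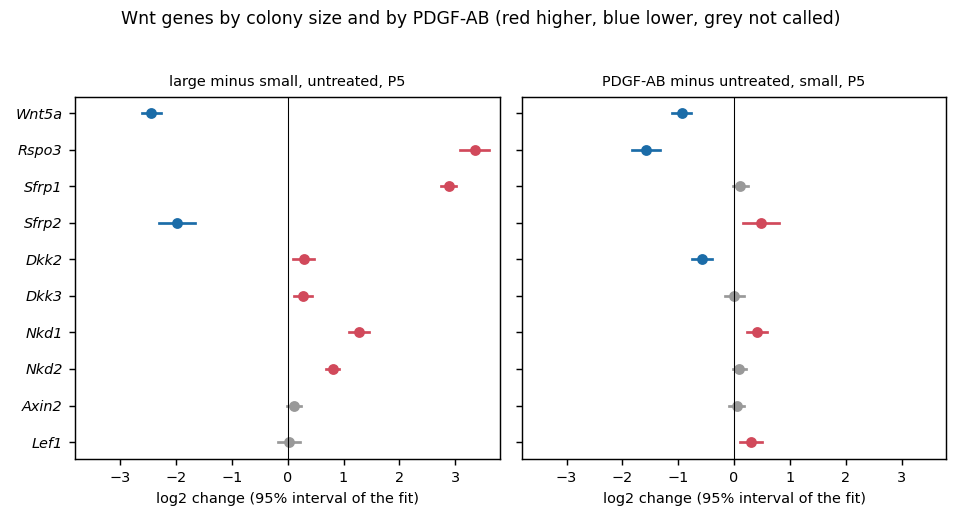
Log2 changes (x axis) of the 10 Wnt genes between large and small untreated colonies and between PDGF-AB-treated and untreated small colonies at passage 5; dots are fitted changes and lines 95% intervals, red higher, blue lower and grey not called. Rspo3 differs by 3.35 between colony types and by -1.58 with PDGF-AB.

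The other pathway genes gave 19 rises and 17 falls with PDGF-AB, 35.3% called. A second R-spondin gene, Rspo2, fell from 8.33 ± 0.11 to 5.97 ± 0.14 (adjusted p = 1.1e-10). Apcdd1 fell by 1.89 (SE 0.063), and the receptor genes Fzd6 (-1.09) and Lrp5 (-0.89) fell. Fzd1 (0.62), Fzd3 (0.59), the Dishevelled gene Dvl1 (0.43) and the matricellular Wnt target Ccn4 (0.38) rose. Of 15 receptor genes 7 fell and 3 rose, and of 9 genes of the R-spondin axis 2 fell (Rspo3 and Rspo2) and none rose. Of 11 nuclear factors 5 rose and none fell, and of 15 target genes 6 rose and 2 fell. These counts stand beside the directional backgrounds given above. The comparison shares its untreated small arrays with the comparison of colony types.

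**Figure D3:**
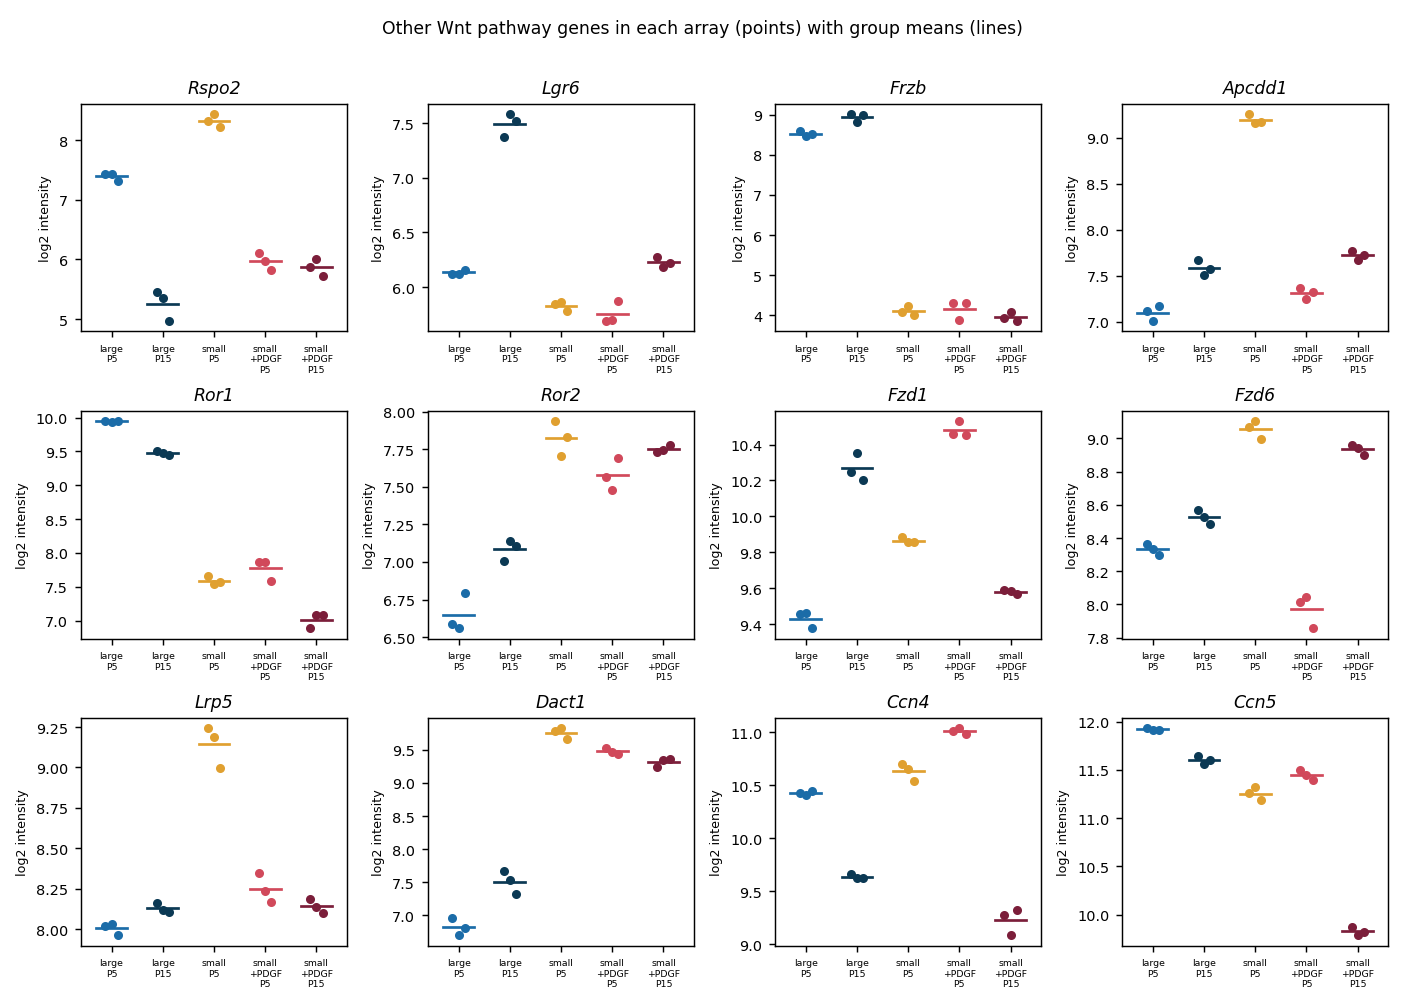
Log2 intensity (y axis, own scale in each panel) of 12 other Wnt pathway genes in the 5 groups, with points for arrays and lines for means of 3 arrays. Rspo2 falls with PDGF-AB and with passage in large colonies, and Frzb lies between 8.46 and 9.02 in large colonies and between 3.86 and 4.30 in small ones.

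Passage 15 was compared with passage 5 in untreated large colonies to ask what changes with time in culture. Lef1, Dkk3, Wnt5a, Sfrp1 and Axin2 rose, by 0.77, 0.67, 0.66, 0.63 and 0.27. Rspo3 fell by 1.95 (SE 0.12, adjusted p = 1.28e-09). Nkd2 (-0.83, SE 0.055, adjusted p = 3.12e-09) and Dkk2 (-0.69, SE 0.085, adjusted p = 5.05e-06) fell as well. Nkd1 (0.21, adjusted p = 0.071) and Sfrp2 (0.047, 95% interval -0.27 to 0.36) were not called. The 8 calls compare with 36.1% of all genes, and the 5 rises and 3 falls with 17.4% and 18.7%. For 9 genes no arrays overlapped (background 44.5%). Nkd1 was called once replicate 2 of late large colonies was omitted (0.29, adjusted p = 0.0166) and once dim genes, those under the median level, were dropped (adjusted p = 0.0355). The median size of the 10 changes was 0.67, against 0.14 over all genes. The mean of the dividing-cell markers lay between 5.25 and 5.41 at passage 5 and between 8.90 and 9.03 at passage 15. The mean of the stromal markers went from between 9.87 and 9.90 to between 10.63 and 10.67. Mesothelial markers were lower at passage 15 (5.70 to 5.90 against 6.20 to 6.37), as were the endothelial and cardiomyocyte means, and leukocyte markers were higher (5.46 to 5.52 against 5.29 to 5.35), as was the pericyte mean. Called by limma were 3 of 5 mesothelial, 1 of 7 endothelial, 1 of 6 cardiomyocyte and 2 of 7 leukocyte markers, against 36.1% of all genes. So were 4 of 5 pericyte, 7 of 8 stromal and 5 of 5 dividing-cell markers. The part of all these in the result was not tested.

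Of the other pathway genes 28 rose and 26 fell with passage in large colonies, 52.9% called. Of all genes 36.1% were called, 17.4% higher and 18.7% lower. The R-spondin gene Rspo2 fell (-2.13, SE 0.11, adjusted p = 1.16e-10), while the R-spondin receptor gene Lgr6 rose by 1.36 (SE 0.066). The formin gene Daam2 (1.59), Fzd1 (0.84) and the surface receptor gene Cd44 (0.72) rose. Daam2 at passage 5 (4.67 ± 0.091) and Rspo2 at passage 15 (5.26 ± 0.26) lay below the array medians, so folds against them may depend on background. Ccn4 (-0.79), the destruction-complex gene Apc (-0.71) and the kinase gene Camk2d (-0.53) fell. Of 15 measured target genes, Axin2 and Lef1 among them, 9 rose and 2 fell, with a median change of 0.26 against -0.042 over all genes. Of 19 intracellular transducer genes 3 rose and 9 fell.

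**Figure D4:**
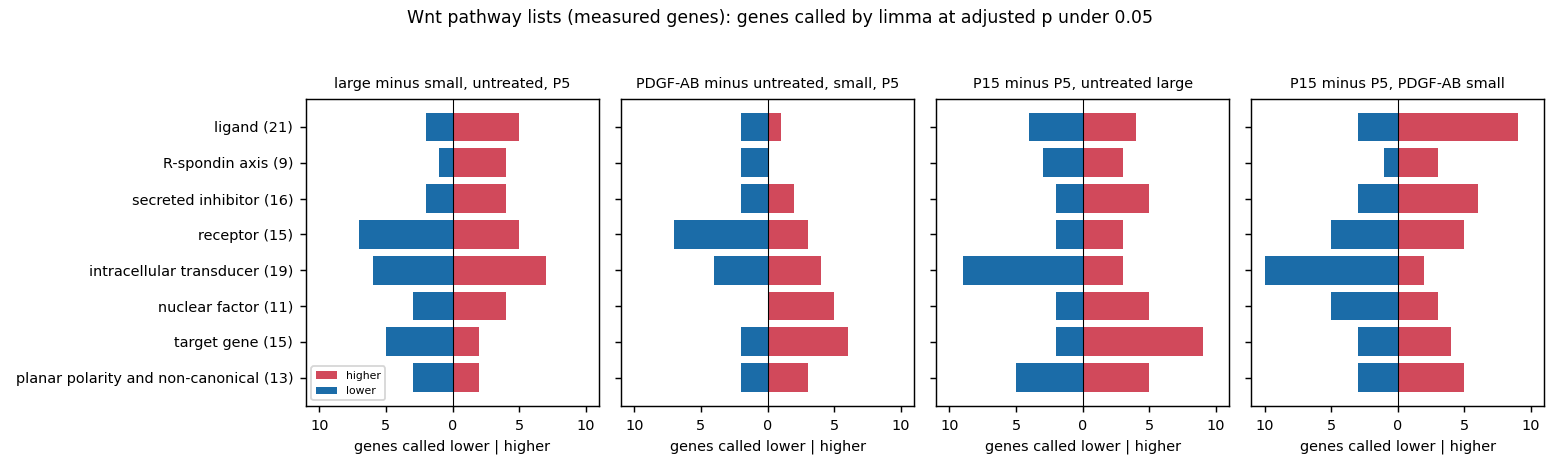
Number of measured genes called lower (left, blue) or higher (right, red) in each role list of the Wnt pathway, members included, in 4 comparisons; the number of measured genes stands in parentheses after each list. With passage in large colonies 9 of 15 target genes were called higher and 2 lower, against 17.4% and 18.7% of all genes. The role lists can share genes, and that of secreted inhibitors also holds membrane proteins.

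The same passages were compared in small colonies kept with PDGF-AB. Nkd2 (-3.22), Sfrp2 (-2.05), Sfrp1 (-1.91), Nkd1 (-0.83), Wnt5a (-0.56) and Rspo3 (-0.51) fell. Lef1 rose by 1.18 (SE 0.093, adjusted p = 1.73e-08) and Dkk2 by 0.49 (SE 0.085, adjusted p = 1.42e-04). Dkk3 (0.031) and Axin2 (0.10, 95% interval -0.028 to 0.23, adjusted p = 0.188) were not called. The 8 calls compare with 46.0% of all genes, and the 2 rises and 6 falls with 24.6% and 21.4%. Without overlap were 9 genes (background 54.9%). The median of the 10 changes was -0.53, against 0.051 over all genes. The mean of the dividing-cell markers went from between 5.29 and 5.53 to between 9.42 and 9.56. Leukocyte markers went from between 5.38 and 5.42 to between 4.85 and 4.94, and pericyte markers from between 5.91 and 6.01 to between 6.26 and 6.32. Cardiomyocyte markers were lower and endothelial ones higher at passage 15, without overlap. Called by limma were 5 of 7 leukocyte, 3 of 5 pericyte, 2 of 6 cardiomyocyte and 3 of 7 endothelial markers, against 46.0% of all genes. So were 5 of 5 dividing-cell markers. What part they had in the result was not tested.

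Among the other pathway genes 32 rose and 26 fell with passage in treated small colonies, 56.9% called. Of all genes 46.0% were called, 24.6% higher and 21.4% lower. The matricellular genes Ccn4 (-1.78) and Ccn5 (-1.62), the formin gene Daam1 (-1.10) and Fzd1 (-0.90) fell. Fzd6 (0.96), Fzd4 (0.95), the planar polarity gene Vangl2 (0.87) and the target gene Myc (1.07) rose. Of 19 intracellular transducers 2 rose and 10 fell, of 21 genes for ligands and their export 9 rose and 3 fell, and of 15 target genes 4 rose and 3 fell.

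The passage changes of both lines were set against each other in 1 model, as the change in treated small minus the change in untreated large colonies. The lines share no arrays, but they differ in both colony size and PDGF-AB. Sfrp1 rose in large and fell in treated small colonies (0.63 and -1.91, difference -2.54, SE 0.089, adjusted p = 2.13e-12). Wnt5a did the same (0.66 and -0.56, difference -1.22, SE 0.11, adjusted p = 3.43e-07), and Dkk2 the opposite (-0.69 and 0.49, difference 1.18, SE 0.12, adjusted p = 1.02e-06). Nkd2 fell in both, with a difference of -2.39 (SE 0.078, adjusted p = 1.08e-12), and Rspo3 fell more in large colonies (difference 1.45, SE 0.17, adjusted p = 5.83e-06). The change differed by -2.09 for Sfrp2, by -1.04 for Nkd1 and by -0.64 for Dkk3, each called. Sfrp2 in large colonies, and Rspo3, Dkk2 and Dkk3 in treated small ones, lay below the array medians at both passages. Dkk2 in large colonies lay below them at passage 15 (5.17 ± 0.055). This limits how far a fall could be measured in those groups. Lef1 rose in both lines, by 0.42 more in treated small colonies (adjusted p = 0.0219). The Lef1 call was lost without large passage 5 replicate 2 (adjusted p = 0.0513), large passage 15 replicate 1 (0.0591) or treated passage 15 replicate 3 (0.0525), and after cyclic loess (0.06). Axin2 was not called (-0.17, adjusted p = 0.14), but was after cyclic loess (-0.30, adjusted p = 0.00819). The 9 calls of 10 compare with 34.4% of all genes, and the 3 higher and 6 lower with 18.6% and 15.9%. Of the other pathway genes 19 were higher and 26 lower, with Rspo2 (2.03), Fzd6 (0.77), Fzd1 (-1.74) and Ccn5 (-1.30) named by the smallest adjusted p. Rspo2 went from 7.39 ± 0.060 to 5.26 ± 0.26 in large colonies, the latter below the array medians. In treated small colonies it went from 5.97 ± 0.14 to 5.87 ± 0.14, little above them at both passages.

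**Figure D5:**
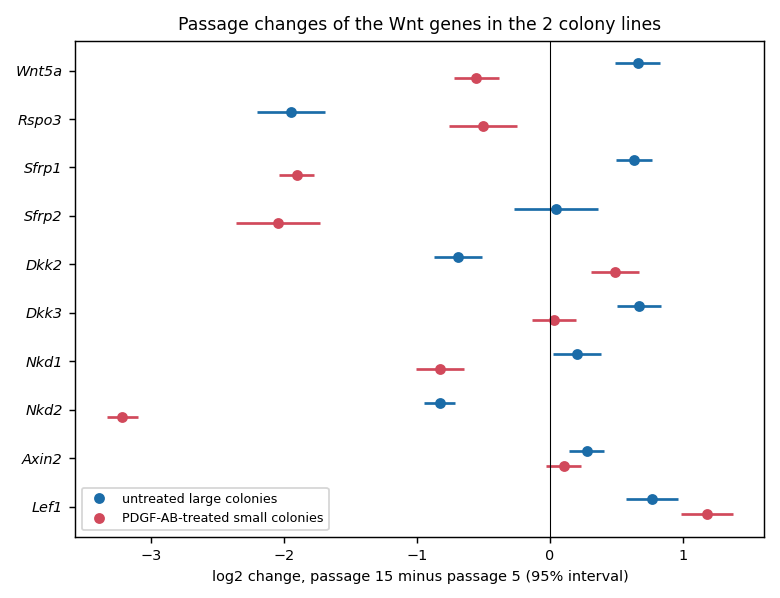
Log2 change from passage 5 to passage 15 (x axis) of the 10 Wnt genes in untreated large colonies (blue) and PDGF-AB-treated small colonies (red); dots are fitted changes and lines 95% intervals. Wnt5a, Sfrp1 and Dkk2 move in opposite directions, while Rspo3, Nkd2 and Lef1 move the same way in both lines.

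Treated small colonies were also set against untreated large ones at each passage. At passage 5 Rspo3 (-4.92), Sfrp1 (-2.77), Nkd1 (-0.87), Dkk2 (-0.86), Nkd2 (-0.71) and Dkk3 (-0.27) were lower in treated small colonies. Sfrp2 (2.46), Wnt5a (1.51) and Lef1 (0.27) were higher, and Axin2 was not called. The 9 calls compare with 35.7% of all genes, and the 3 higher and 6 lower with 14.8% and 20.9%. The groups were apart in all arrays for 9 genes (background 43.9%). Stromal markers lay between 9.27 and 9.31 in treated small and between 9.87 and 9.90 in large colonies, mesothelial markers between 5.56 and 5.74 and between 6.20 and 6.37, and cardiomyocyte markers between 5.81 and 5.88 and between 5.38 and 5.49. Pericyte and endothelial means were lower and the leukocyte mean higher in treated small colonies, also without overlap. Called by limma were 7 of 8 stromal, 2 of 5 mesothelial and 1 of 6 cardiomyocyte markers, against 35.7% of all genes. So were 4 of 5 pericyte, 1 of 7 endothelial and 3 of 7 leukocyte markers. The part of these markers in the result was not tested. The Lef1 call (adjusted p = 0.0297) was lost without large replicate 1 (adjusted p = 0.12) or 3 (0.0503) and without treated replicate 1 (0.0938) or 2 (0.0607), and the Dkk3 call (adjusted p = 0.0104) without large replicate 2 (0.0544). Among other genes Dact1 (2.66) and Fzd1 (1.05) were higher and Frzb (-4.36) and Ror1 (-2.17) lower.

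At passage 15 all 10 genes were called, against 53.4% of all genes. Sfrp1 was lower in treated small colonies (-5.31, SE 0.063, adjusted p = 1.99e-18), a 39.7-fold ratio of intensity. Rspo3 (-3.48), Nkd2 (-3.11), Nkd1 (-1.91), Dkk3 (-0.91) and Axin2 (-0.24) were lower too. Lef1 (0.69), Sfrp2 (0.37), Dkk2 (0.32) and Wnt5a (0.29) were higher. The 4 higher and 6 lower compare with 29.2% and 24.2%. Late in culture 10 genes had no overlapping arrays (background 60.7%). The Sfrp2 call (adjusted p = 0.0474) was lost in 5 of 6 leave-one-out fits, without large replicate 2 (adjusted p = 0.107) or 3 (0.143) or treated replicate 1 (0.107), 2 (0.119) or 3 (0.0558). It was lost too after cyclic loess (0.13), with all probe sets tested (0.0596) and with a replicate block (0.0539). The Dkk2 difference was 0.16 (adjusted p = 0.191) and the Axin2 difference -0.38 after cyclic loess. The mean of the dividing-cell markers lay between 9.42 and 9.56 in treated small and between 8.90 and 9.03 in large colonies, that of the stromal markers between 9.26 and 9.28 and between 10.63 and 10.67, and that of 7 leukocyte markers between 4.85 and 4.94 and between 5.46 and 5.52. Cardiomyocyte and endothelial means were higher and the pericyte mean lower in treated small colonies, without overlap. Called by limma were 2 of 6 cardiomyocyte, 4 of 7 endothelial and 4 of 5 pericyte markers, against 53.4% of all genes. So were 4 of 5 dividing-cell, 7 of 8 stromal and 6 of 7 leukocyte markers. None of these was tested for its part in the result. Dact1 (1.81) and Fzd3 (0.98) were higher and Frzb (-4.98) and Ror1 (-2.46) lower.

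The gene most like each of the 10 in pattern was sought among 18221 other genes, as the smallest root mean square difference between the 5 group means after each gene was centred on its own mean. These distances describe the profile over 5 groups and carry no test. The nearest were Mmp23, a matrix metalloproteinase gene, to Sfrp2 (0.0597), Ptges, a prostaglandin E synthase gene, to Sfrp1 (0.375), Ube2l6, an interferon-induced ubiquitin enzyme gene, to Wnt5a (0.18) and Ccdc68 to Nkd2 (0.151). For Rspo3 the nearest gene, Fndc1, was at 0.581, the largest distance among the 10. Distances were not scaled to the range of a gene's group means, which was widest for Rspo3 (5.43) and narrowest for Axin2 (0.39). Their sizes therefore do not rank how close the matches are. The nearest genes of the others were Emd to Axin2 (0.0161), Usp12 to Dkk3 (0.0267), Rassf8 to Dkk2 (0.0653), Ints6l to Nkd1 (0.0958) and Dctpp1 to Lef1 (0.096). Among the 10 genes themselves Axin2 and Dkk3 were nearest to each other (0.239), as were Wnt5a and Sfrp2 (0.584) and Rspo3 and Sfrp1 (1.00).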

How the data were processed

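RNA from 15 samples was labelled for Affymetrix whole-transcript arrays, 1 array per sample, per the labels' protocols. The deposited values are log2 intensities of 28853 probe sets, normalized between arrays by the authors. RMA and limma appear, without version or role, in the submitters' processing notes, and raw scans were not used here. Of the probe sets 21789 named 1 gene, 1621 several and 5443 none. The probe set with the highest mean was kept per gene, leaving 19938 genes, and gene identifiers of 21698 probe sets were found in RefSeq.

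Groups were taken from the labels. limma 3.58.1 in R 4.3.3 was fitted to the 15 arrays together (residual degrees of freedom 10, prior 5.80), 2-sided, with Benjamini-Hochberg adjustment in each of 7 comparisons. The pipeline was tested on simulated data. Beyond the 10 genes, the text names up to 4 rises and 4 falls (2 and 2 in the last 3 comparisons) of smallest adjusted p from lists of 113 pathway genes, 112 of them measured, plus Pdgfra, Thy1, Pecam1 and Xist and the gene nearest in pattern to each of the 10. Alternatives covered scaling, filters, probe set rules, moderation, a replicate block and leaving out each array. The 10 genes were proposed, and the lists written, with earlier results of these data known, so counts among them are descriptions. Array number, 3 per group, limits the precision. Replicate numbers were not treated as pairs, since in no comparison did every pair correlate above 0.1, a cut-off that cannot exclude pairing.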

Additional observations from a re-analysis of the deposited data

Results flagged for a closer look

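For 9 of the 10 genes the passage change differed between treated small and untreated large colonies in the test of the difference itself, limma's interaction contrast, which called 34.4% of all genes. The difference was -1.22 for Wnt5a, 1.45 for Rspo3 and -2.54 for Sfrp1. It was -2.09 for Sfrp2, 1.18 for Dkk2 and -0.64 for Dkk3. It was -1.04 for Nkd1, -2.39 for Nkd2 and 0.416 for Lef1. Rspo3, Dkk2 and Dkk3 in treated small colonies and Sfrp2 in large ones lay below the array medians at both passages. Dkk2 in large colonies lay below them at passage 15. This limits how far a fall could be measured in those groups. The Lef1 call was lost after cyclic loess (adjusted p = 0.06) and in 3 fits that left out 1 array (0.0513 to 0.0591).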

How the results depend on the processing

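Of 1012 values of the 10 genes under alternatives, 977 kept their side of the threshold, 30 lost the call and 5 gained it. No change called before or after reversed its direction. Direction was not compared where neither value was called. Some alternatives, such as the replicate block, alter the test but not the size of a change. The 44 changes of other pathway genes named above kept their direction and call in all 634 values. They had been chosen as the calls of smallest adjusted p, so this is no test of robustness. Dropping dim genes (under the median level) removes Dkk2, Dkk3, Axin2 and Lef1 from the test, and 5 of the 10 genes instead of 8 were then called with passage in large colonies. The same filter left 6 instead of 10 between treated small and large colonies at passage 15, with 6829 instead of 10637 of all genes called. Leaving out 1 array gave 4 to 6 of the 10 called with PDGF-AB, 7 to 8 between colony types, 8 to 9 with passage in large colonies and 8 with passage in treated small ones. It gave 8 to 9 and 9 to 10 between treated small and large colonies at passages 5 and 15, and 8 to 9 in the difference of passage changes. With the replicate block the counts were 8, 6, 8 and 8 for colony type, PDGF-AB and passage in large and in treated small colonies, and 9, 9 and 9 in the other 3. The numbers were not treated as pairs. Yet in large colonies each of 6 arrays correlated most with its same-numbered partner (correlations 0.208, 0.0984 and 0.202). This is a hint from the data and not from the design. Centring arrays on their medians moved the share of calls that were higher from 48.3% to 38.0% with passage in large colonies, from 37.1% to 47.8% with PDGF-AB and from 53.6% to 43.6% with passage in treated small colonies. It reversed no called change of the 10 genes and none of the 44 named changes of other pathway genes. Uncalled changes were not compared in direction. Low signal limits Dkk2, Dkk3, Axin2 and Lef1, whose mean levels lay below the median of genes, and the groups in which Rspo3 and Sfrp2 lay below the array medians. The cause was not tested.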
